A study of Ovis aries with 9 samples.

Results

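The cytosolic ribosomal protein genes were examined in hypothalamic RNA of Dolang ewes around the first estrus. The members were the genes whose RefSeq symbol is RPL or RPS with a number, at most 1 letter and 1 further number, together with RPLP0, RPLP1, RPLP2 and RPSA, and they were read from rows with mRNA identifiers (NM_ or XM_) only. This gave 79 genes with 146 transcripts, out of 21284 genes with such rows in the whole series. Of these, 43 encode proteins of the large subunit, 30 encode proteins of the small subunit, and 6 are paralogues of a core gene (RPL3L, RPL7L1, RPL10L, RPL22L1, RPL26L1 and RPS27L). The rule leaves out FAU, which encodes a ribosomal protein fused to a ubiquitin-like protein, and RACK1, a scaffold protein on the small subunit. RPS28 is annotated as non-coding in the assembly used (ARS-UI_Ramb_v3.0), so it is no member, and RPL17, RPL26 and RPL41 were not analysed here.

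The cytosolic ribosome is built from 1 copy of nearly every ribosomal protein together with ribosomal RNA, and excess free proteins are degraded, so cells make them in matched amounts. The mRNAs are short, stable and among the most abundant of the cell. They begin with a terminal oligopyrimidine (TOP) stretch, through which mTOR and LARP1 control their translation. In brain tissue the pool is a sum over neurons, glia and vessel cells, and in bulk RNA fewer cells of a type and less RNA per cell cannot be told apart.

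Hypothalami were taken from 3 ewes before puberty (120 days of age, calm and refusing the ram), 3 ewes showing puberty for the first time (130 days) and 3 ewes after puberty (150 days, calm again), and each ewe gave 1 library. No ewe was treated or genetically altered, and the stage was assigned by the study from behaviour and the vulva. Age and stage changed together and cannot be told apart. The deposited values were in FPKM (fragment numbers scaled to transcript length and library size), a level corrected for length, and the transcripts of a gene were summed.

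FPKM over all rows summed to between 359588 and 398109 in 8 libraries. In Puberty 2, replicate 2 of puberty, it came to 599726, and there 42441 rows were above 0, against 67824 to 71787 elsewhere. Puberty 2 therefore stood apart, and the stage comparisons of the members are given with and without it. The glial and neuronal markers were above 0 in all libraries, though some were near 0. SLC1A2 (0.00353) and RBFOX3 (0.0249) were so in Puberty 2, and FGFR3 did not exceed 0.303 FPKM in any library. Among 13 genes that define the hypothalamus, GNRH1 was listed at 0 in each of the 9 libraries, and SIM1 and NKX2-1 did not exceed 0.262 FPKM. AVP ranged from 0.551 to 10.4 and OXT from 0.319 to 4.81. Of the same list, KISS1, AGRP, PMCH and HCRT did not exceed 1.68 FPKM, and OTP reached 4.91. TRH ranged from 0.824 to 36.8, NPY from 0.222 to 22.7 and CRH from 0.392 to 118, with its highest value in Prepuberty 1. The defining markers thus differed widely in level, and several of them were at or near 0 throughout. FPKM carries no read counts, so no counting error is given.

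The members were among the most abundant transcripts. Their FPKM summed to 28888, 17615 and 20373 before puberty, to 18928, 75982 and 25132 at puberty, and to 24567, 20505 and 25509 after puberty. As a share of the FPKM of all mRNA genes this was 11.2%, 7.34% and 8.91% before puberty, 8.11%, 20.1% and 9.73% at puberty, and 10.1%, 8.46% and 9.79% after puberty. Puberty 2 was 2.63 times as high as the next library in the sum and 1.79 times as high in the share, while the other 8 libraries overlapped between stages. Of the 100 genes with the highest FPKM in a library, between 24 (Prepuberty 2) and 51 (Puberty 2) were members.

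**Figure D1:**
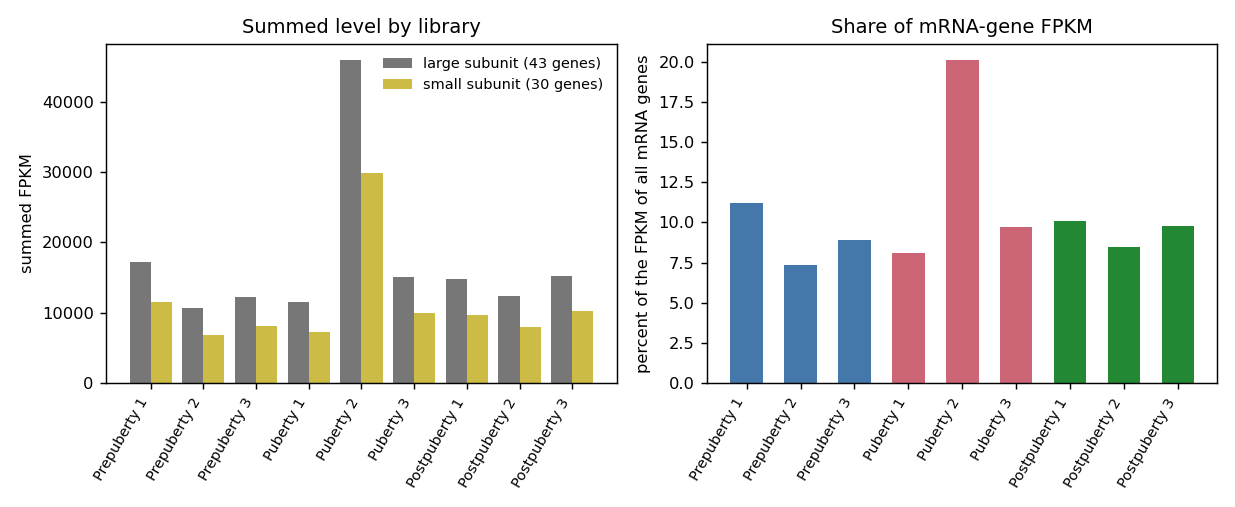
Left, summed FPKM of the 43 large-subunit and 30 small-subunit genes in each library, as bars from 0; right, all 79 members as a percent of the FPKM of all mRNA genes, coloured by stage. Puberty 2 stands at 20.1%, and the other libraries lie between 7.34% and 11.2% with no order by stage.

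Both subunits moved together from library to library. The large-subunit sum divided by the small-subunit sum was 1.51 ± 0.0349 (SD, n = 3) before puberty, 1.54 ± 0.0328 at puberty and 1.53 ± 0.0355 after puberty, or 1.55 ± 0.0452 (n = 2) at puberty without Puberty 2, and it ranged only from 1.49 to 1.58 over the 9 libraries. In Puberty 2 it was 1.53, inside the range of the others, although both sums were higher there than in any other library. Since the large subunit has more members, the sums reflect gene number. The median gene of the large subunit divided by that of the small subunit was between 0.924 and 1.16 in the 8 other libraries and 0.851 in Puberty 2. By stage this ratio was 1.04 ± 0.118 (SD, n = 3) before puberty, 0.981 ± 0.119 at puberty and 1.03 ± 0.0889 after puberty, and 1.05 ± 0.054 (n = 2) at puberty without Puberty 2.

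Members of the large subunit had mean levels over the 8 libraries without Puberty 2 from 31.6 to 953 FPKM with a median of 302, and members of the small subunit from 1.52 to 774 FPKM with a median of 309. The level was at least 100 FPKM for 40 of the 43 large-subunit genes and for 25 of the 30 small-subunit genes. The middle of the 2 distributions was thus alike, and the small subunit held the lowest members.

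The most abundant gene of the large subunit was RPLP1 (chromosome 7, 16343045 to 16345237), which encodes an acidic protein of the stalk that recruits elongation factors. Its FPKM was 1296, 676 and 875 before puberty, 795, 3826 and 1001 at puberty, and 1047, 806 and 1129.8 after puberty. Puberty 2 was the highest, followed by Prepuberty 1, and Prepuberty 2 was the lowest. The next were RPL23A, RPL31 and RPL35, all of which lie near the exit of the peptide tunnel, with means over the 8 libraries of 851, 597 and 515 FPKM. In the small subunit, RPS14, the gene deleted in the 5q- syndrome, was 735, 479.8 and 522 FPKM before puberty, 437, 1717 and 623 at puberty, and 632, 536 and 613 after puberty. As for RPLP1, Puberty 2 and Prepuberty 1 were the highest, and Puberty 1 was the lowest. RPS19, the gene most often mutated in Diamond-Blackfan anaemia, had a mean of 488 FPKM over the 8 libraries.

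At the lower end of the large subunit were RPL27 (78.3 FPKM), RPL9 (39.3) and RPL7A (31.6). At the lower end of the small subunit were RPS2 (6.70), RPS4X (5.21) and RPS25 (1.52). A protein of each of these genes is a fixed part of the ribosome, yet RPS25 was listed far under RPS14 in every library. Ribosomal protein genes have many processed copies in mammalian genomes, and how fragments that fit several copies were assigned is not given in the sources used here, so the level of a single member is uncertain where a copy was counted apart. Its part in these values was not tested.

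Most members kept their proportions to each other. The coefficient of variation (CV, the SD as a percent of the mean) over the 8 libraries without Puberty 2 had a median of 17.8% for large-subunit genes and 17.7% for small-subunit genes. When each library was divided by the median ratio of its 73 core members to their median levels, the median CV dropped to 5.34% for large-subunit genes and 6.48% for small-subunit genes, and it was under 10% for 54 of the 73. RPL18 of the large subunit was the steadiest after this division, with a CV of 2.28%. The same division was made for other lists, with factors from each list's own genes. The respiratory chain list held 66 genes, mostly subunits, but also NDUFAF1 to NDUFAF8 and ATP5IF1, which are not. Its median CV went from 16.1% to 9.02%, and that of 74 mitochondrial ribosomal proteins from 16.9% to 14.3%. For all 14238 genes that passed the filter it went from 25.7% to 25.3%. These CVs are descriptions, since the factors came from the genes they were applied to and less abundant genes vary more.

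The shared factor was 1.27 in Prepuberty 1, 0.803 in Prepuberty 2 and 0.924 in Prepuberty 3, 0.844 in Puberty 1 and 1.09 in Puberty 3, and 1.09, 0.917 and 1.12 in the postpuberty libraries. The highest and the lowest of these libraries thus came from the same stage and differed 1.58-fold, while the factors spanned 1.30-fold between Puberty 1 and Puberty 3 and 1.22-fold within postpuberty. Among the 73 core genes, 57 were highest of the 8 libraries in Prepuberty 1, where 15.6% of all genes that passed the filter were highest. Prepuberty 2 was the lowest for 44 core genes (16.9% of all genes) and Puberty 1 for 16 (11.7%).

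Some cell type marker sums differed between the libraries with high and low factors, but the lists did not all follow the factor. The summed FPKM of 8 astrocyte markers was 7592 in Prepuberty 1, 6431 in Postpuberty 1, 5553 in Puberty 3 and 5292 in Postpuberty 3, the 4 libraries with a factor above 1, and between 3061 and 4281 in the 4 with a factor below 1. Most of that sum was GFAP (6624 in Prepuberty 1), the filament protein of astrocytes. AQP4, of the same list, was also higher in these 4 libraries, with 160 to 233 FPKM against 78.4 to 140. The glutamate transporters SLC1A2 and SLC1A3 went the other way. SLC1A2 was at 32.8, 43.5, 33.6 and 23.1 FPKM in these 4 libraries and 70.1 to 76.0 in the 4 with a factor below 1. SLC1A3 was at 95.0 to 152 against 164 to 217, and AGT, ALDH1L1, GJA1 and FGFR3 overlapped. The 8 microglial markers summed to between 189.7 and 407 in the libraries with a factor above 1 and between 92.2 and 192 in those with a factor below 1. The endothelial and mural sums were 209 to 449.8 and 142 to 211 in these libraries, so that both lists overlapped slightly. ACTA2 alone gave 233 of the highest sum, in Postpuberty 1, and was between 19.6 and 56.9 FPKM in the other libraries. The 8 of 10 neuronal markers that were measured summed to 324, 1085 and 653 before puberty, 811, 199 and 814 at puberty, and 393, 872 and 781 after puberty. They were thus low in Prepuberty 1 and high in Prepuberty 2, but Puberty 3 and Postpuberty 3, with factors above 1, exceeded Prepuberty 3. Oligodendrocyte markers summed to 14900 in Prepuberty 1 and 6496 in Prepuberty 2, and Prepuberty 3 (13502), with a factor below 1, was above Puberty 3 (11842) and Postpuberty 3 (9137). The ependymal and tanycyte markers summed to between 249.5 and 363 in the 4 libraries with a factor above 1 and between 99.0 and 139 in the 4 with a factor below 1. VIM gave most of this, with 167 to 272 FPKM against 53.3 to 82.3, and RARRES2 was also higher, with 62.0 to 99.3 against 24.5 to 41.7, while FOXJ1 and CRYM overlapped and DIO2 was mostly lower where the factor was high, with 0.815 to 1.59 against 1.41 to 2.91. The 5 lymphocyte markers summed to 38.4 in Prepuberty 1 and 61.6 in Postpuberty 3, the libraries with the highest factors, and to between 4.88 and 11.0 in the other 6 without Puberty 2. The 4 choroid plexus markers summed to 7623 in Puberty 3, nearly all of it TTR, and to between 9.57 and 727 in the others without Puberty 2. No astrocyte, microglial or neuronal marker was at 0 in any library. The part of these markers in the ribosomal protein levels was not tested.

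**Figure D2:**
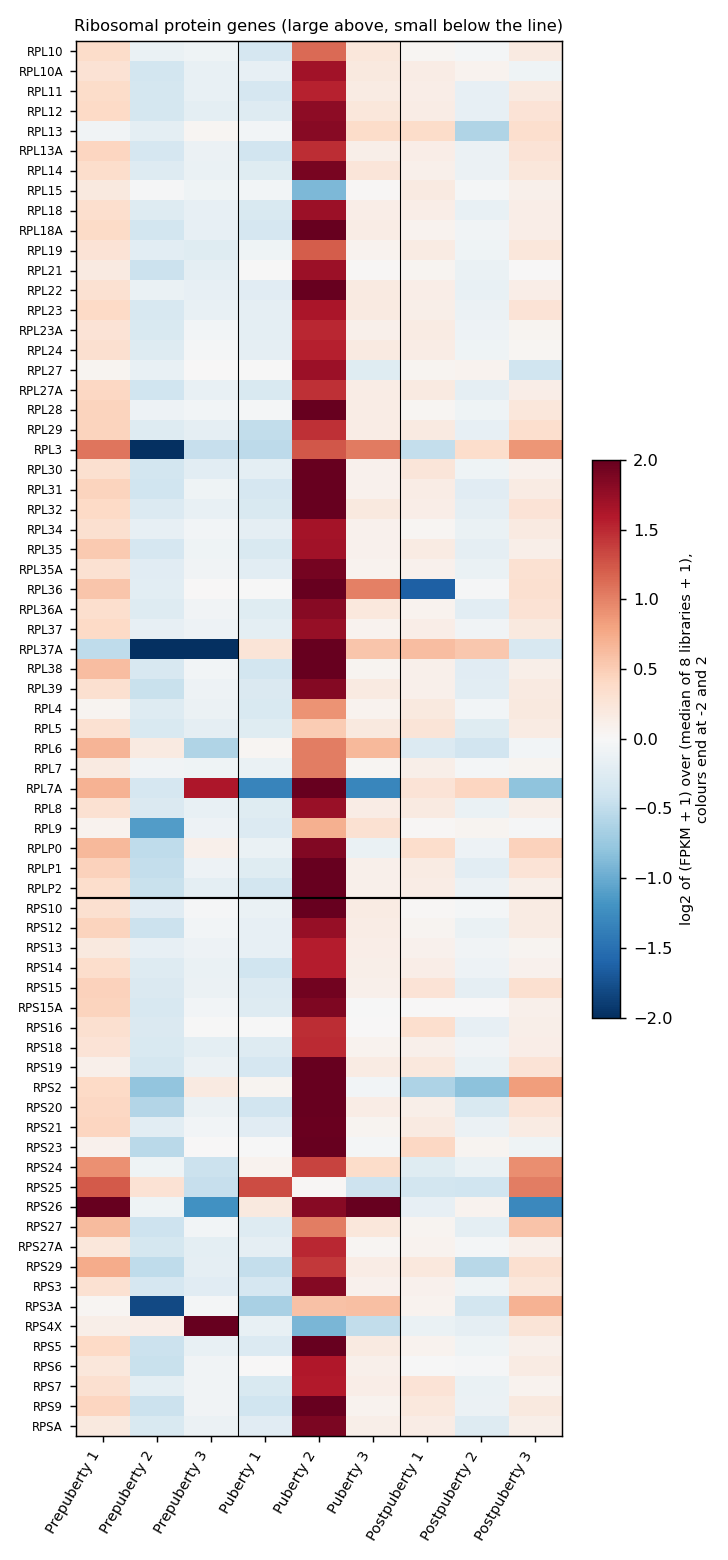
Level of the core members drawn, in each library, as the log2 ratio of FPKM + 1 to the median of the 8 libraries without Puberty 2, with the large subunit above the line. Columns shift as a whole, palely for Prepuberty 1 (factor 1.27) and Prepuberty 2 (factor 0.803) and strongly for Puberty 2, and a few rows such as RPL37A, RPS26 and RPL3 leave the pattern.

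A few members did not share the factor. The highest of the 8 libraries was less than 2.5 times the lowest for 62 of the 73 core genes and more than 3 times for 9, which were RPL3, RPL7A, RPL36 and RPL37A of the large subunit and RPS2, RPS3A, RPS4X, RPS25 and RPS26 of the small subunit. These 9 made up 4.33% of the summed core level over the 8 libraries. They were picked by their spread, so what follows describes them.

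RPS26 (chromosome 3, 163496082 to 163497950), whose product sits at the mRNA exit channel, had the largest CV of the small subunit at 184%. It was 349 FPKM in Prepuberty 1 and 271 in Puberty 3, but 1.55 and 0.159 in Prepuberty 2 and Prepuberty 3, 2.09 and 8.57 in Puberty 1 and Puberty 2, and 1.40, 1.84 and 0.106 after puberty. The gene thus had 2 separate ranges of level, and the 2 high libraries came from different stages. RPL37A (chromosome 2, 218496672 to 218515299), a zinc-binding protein of the large subunit, was 213, 3.84 and 3.63 FPKM before puberty, 363, 2059.6 and 445 at puberty, and 468, 441 and 243 after puberty. It was low in 2 of the 3 prepuberty libraries only. Where it was high, nearly all of its level lay in 1 of its 3 transcripts, which gave 208, 1.70 and 2.01 FPKM before puberty, and in Prepuberty 2 another transcript gave more (1.98).

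RPL3 (chromosome 3, 216565959 to 216572319), whose product reaches toward the peptidyl transferase centre, was 259.9, 18.8 and 89.1 FPKM before puberty, 85.6, 291 and 252 at puberty, and 88.1, 157 and 229 after puberty. Its ranges overlapped between all stages. RPL7A, a protein of the outer large subunit with the largest CV there (78.1%), was 43.8, 20.9 and 84.3 FPKM before puberty, 10.1, 511 and 10.2 at puberty, and 32.5, 36.4 and 14.8 after puberty. The lowest 2 libraries of RPL7A and the highest were all from puberty.

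RPL36 was 53.7 FPKM in Postpuberty 1 alone, against 146 to 338 in the other libraries apart from Puberty 2 (793). RPS3A, which lies at the solvent side of the small subunit, was 70.8 FPKM in Prepuberty 2 and between 160.0 and 409 in the other 8 libraries. RPS4X, an X-linked core protein, was 3.07, 3.12 and 23.3 FPKM before puberty, 2.37, 0.994 and 1.65 at puberty, and 2.41, 2.30 and 3.45 after puberty. Each of the 3 thus stood apart in 1 library. RPS25, which some viral mRNAs need to start translation, was between 0.32 and 3.52 FPKM, and RPS2, at the mRNA entry channel, between 3.34 and 12.8 FPKM outside Puberty 2.

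**Figure D3:**
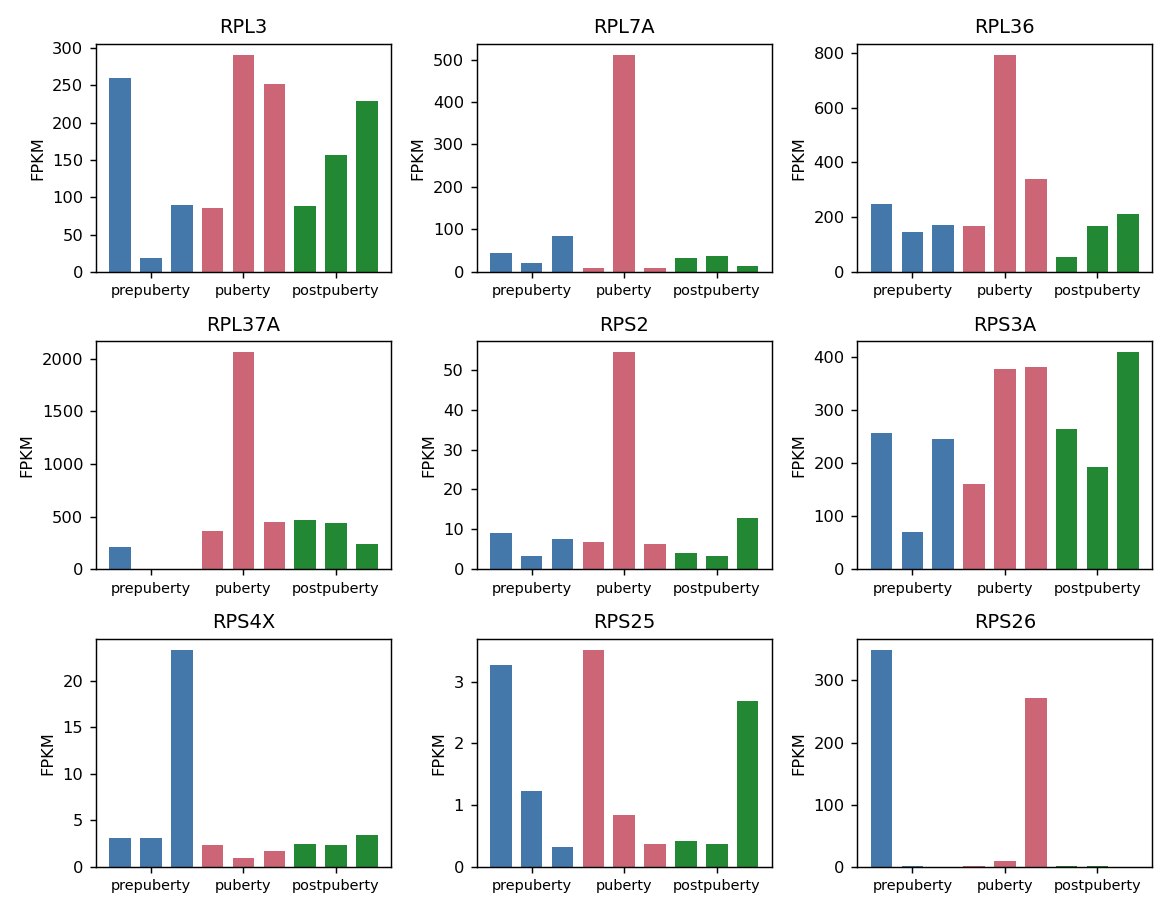
FPKM of the 9 core members with a more than 3-fold spread over the libraries without Puberty 2, as bars from 0, with replicates 1 to 3 of each stage from left to right. RPS26 is high in Prepuberty 1 (349) and Puberty 3 (271) only, and RPL37A is near 0 in Prepuberty 2 and Prepuberty 3.

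The steadiest members before any division were RPL7 in the large subunit (CV 7.58%) and RPS13 in the small subunit (CV 9.73%). RPL7 was 335, 281 and 276 FPKM before puberty, 269, 599.9 and 302 at puberty, and 317, 285 and 307 after puberty. Division by the shared factor raised the CV of RPL7 to 9.53% and lowered that of RPS13 to 6.73%, so RPL7 followed the factor less than most members did.

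The paralogues whose parent gene was measured were far less abundant than it. RPL10L, which is known from the testis, was listed at 0 in every library, and RPL3L, known from striated muscle, stayed between 0.0659 and 0.486 FPKM against 18.8 to 291 for RPL3. RPL22L1, which can take the place of RPL22, was 9.53, 3.0 and 6.51 FPKM before puberty, 4.05, 10.0 and 10.4 at puberty, and 7.81, 3.98 and 10.9 after puberty, where RPL22 had a mean of 185 over the 8 libraries. RPS27L, a p53 target, had a mean of 32.4 against 323 for RPS27 and was highest in Puberty 2 (57.8) and Prepuberty 1 (43.7). RPL7L1, a nucleolar protein of ribosome assembly, lay between 14.6 and 24.3 FPKM against 297 on average for RPL7.

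RPL26L1, a close copy of RPL26, which was not analysed here, was 16.6, 19.3 and 17.4 FPKM before puberty, 22.8, 30.2 and 25.8 at puberty, and 16.5, 27.0 and 24.2 after puberty. All puberty libraries were above all prepuberty libraries, while postpuberty overlapped both. RPL10L and RPL3L were the 2 members that did not pass the filter of a mean of 0.5 FPKM in at least 1 stage, which left 77 members in the tests.

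In Puberty 2 most members were higher than in the other libraries. Of the 73 core genes, 68 had their highest value of all 9 libraries there, against 20.2% of all genes that passed the filter. The ratio of Puberty 2 to the median of the other 8 libraries had a median of 3.30 over the core genes, with quartiles of 2.78 and 4.08, and it exceeded 2 for 39 large-subunit and 27 small-subunit genes. For all genes that passed the filter the median ratio was 0.567, and 14.5% reached 2. The direction of the members in this library was thus opposite to that of most genes.

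The largest ratios were those of RPL7A (19.2) and RPS2 (8.15), and RPL37A (6.80) and RPL28 (6.49) were also high. RPL28 was 1206 FPKM in Puberty 2 and 173 to 253 elsewhere, without overlap. The ratio was below 1 for RPL15 (0.534) and RPS4X (0.363) and was 1.03 for RPS25. RPL15, a large-subunit protein mutated in some families with Diamond-Blackfan anaemia, was 176 FPKM in Puberty 2 and stood between 312 and 379.8 in the other libraries, so it went against its subunit by a wide margin. RPL5, which carries 5S ribosomal RNA into the large subunit, had a ratio of 1.42.

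Of the genes that belong to the ribosome but not to the rule, FAU was higher like the members, at 1378 FPKM in Puberty 2 against 239 to 487 elsewhere. RACK1 was 321 against 191 to 305, a ratio of 1.28, below the lower quartile of the core genes. The median ratio was 2.11 for the respiratory chain genes and 1.82 for the mitochondrial ribosomal proteins, with 10 of 66 and 20 of 74 genes below 1. It was 0.788 for 11 elongation and related genes, a list that also held EEF2K (0.0518), ETF1 (0.370), GSPT1 (0.635) and TPT1 (1.65). Of the elongation factors in it, EEF1A1 (0.709), EEF1A2 (0.788) and EEF2 (0.476) were lower in Puberty 2. EEF1B2 (1.35), EEF1D (9.45), EEF1G (1.47) and EIF5A (1.01) were higher. The median was 0.969 for 28 initiation factors, 0.878 for 33 ribosome biogenesis genes and 0.564 for 14 genes of RNA polymerase I. It was 0.357 for 17 regulators of TOP mRNAs such as MTOR, LARP1 and TSC2. Single genes of these lists were higher, such as EEF1D (9.45) of the elongation factors, above all core genes but RPL7A, PES1 (3.61) of ribosome biogenesis and POLR1D (2.59) of RNA polymerase I. In the same library the neuronal markers were at their lowest sum (199), and the astrocyte sum (6524) was inside the range of the others, although SLC1A2 (0.00353) and AQP4 (18.3) were at their lowest and ALDH1L1 (59.1) at its highest. The endothelial and mural markers summed to 680.1, against 142 to 449.8 elsewhere, but CLDN5 alone gave 624 of this. Of the 8 markers PECAM1 (2.94), FLT1 (3.80), CDH5 (1.91), PDGFRB (0.383) and RGS5 (listed at 0) were instead at their lowest of the 9 libraries there, VWF (20.0) was at its highest, and ACTA2 was inside the range. The ependymal and tanycyte markers summed to 466, against 99.0 to 363 elsewhere, of which RARRES2 gave 315. RARRES2 and CCDC153 (39.9) were at their highest, and VIM, FOXJ1, CRYM and DIO2 were inside the range of the others. The part of these values, and of the smaller number of rows above 0, was not tested.

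**Figure D4:**
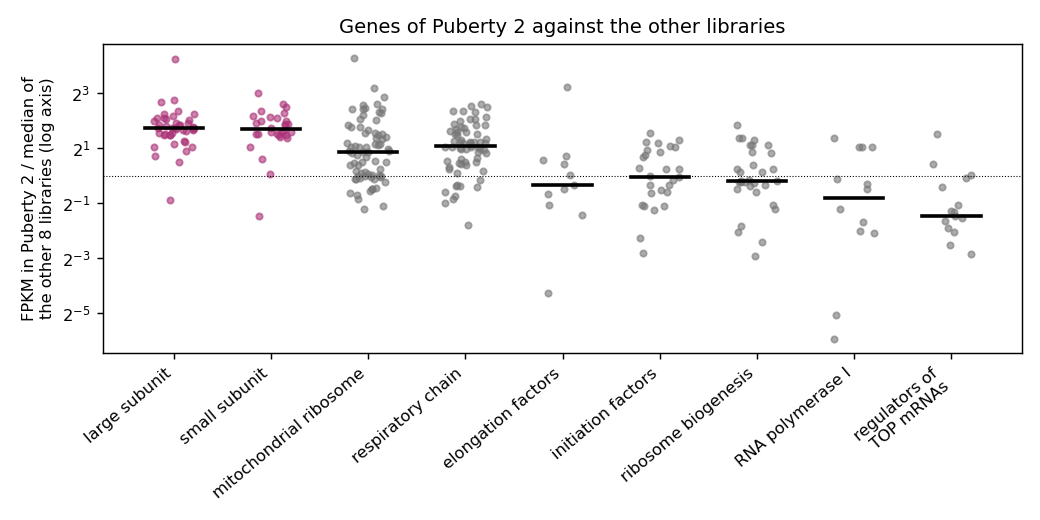
FPKM in Puberty 2 divided by the median of the other 8 libraries, on a log axis, with 1 point for each gene and a line at the median of each list; 7 genes at 0 in Puberty 2 are in the medians but cannot be drawn. The large subunit (3.30) and the small subunit (3.22) lie above the other lists drawn, and the TOP mRNA regulators are lowest at 0.357.

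Stages were compared to ask whether ribosomal protein mRNAs change at the first estrus. With limma on log2(FPKM + 1), 0 of the 77 members tested were called in puberty against prepuberty at an adjusted p under 0.05 and a log2 fold change of at least 1 in size, where the background over all 14238 genes was 0%. The same was found for postpuberty against puberty (0%) and for postpuberty against prepuberty (0%). At an unadjusted p under 0.05 there were 2, 1 and 1 members, beside 1.82%, 2.14% and 0.815% of all genes, that is 259, 305 and 116 genes. The stages share an estimate of the spread, so Puberty 2 enters the error of every comparison. When it was left out, 265 genes had an unadjusted p under 0.05 in limma in postpuberty against prepuberty, and 0 were called. With a single test of 3 against 3 ewes, an exact permutation test could not go below 0.1.

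In puberty against prepuberty the log2 fold change of FPKM + 1 had a median of 0.56 over the members and of -0.14 over all genes. Of the 77 members 72 were higher at puberty, beside 36.8% of all genes. The median was 0.65 with upper quartile scaling, 0.33 with equal totals (71 of 77 higher) and 0.15 with quantile normalization (61 of 77 higher). Without Puberty 2 the median was -0.02 (0.02 over all genes), and 32 members were higher and 45 lower, where 55.3% of all genes were higher. The mean summed FPKM was 22292 ± 5877 (SD, n = 3) before puberty and 40014 ± 31303 (n = 3) at puberty, and it was 22030.0 ± 4387 (n = 2) at puberty without Puberty 2. The difference of the stage means was thus smaller than the SD at puberty, and it was gone without that library. Large-subunit genes had a median of 0.56 with all libraries and -0.03 without Puberty 2, and small-subunit genes of 0.56 and -0.01.

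In postpuberty against puberty the median over the members was -0.49 with all libraries (0.19 over all genes). Of the 77, 74 were lower after puberty, where 67.6% of all genes were higher. Without Puberty 2 the median was 0.11 (0.03 over all genes), with 64 of 77 higher beside 55.1% of all genes. Puberty then held 2 libraries, with shared factors of 0.844 and 1.09, against 1.09, 0.917 and 1.12 after puberty. Since the members moved together from library to library, the numbers of members higher or lower in any comparison are not counts of independent genes. With all libraries it was -0.30 with equal totals (69 lower) and -0.13 with quantile normalization (61 lower). These comparisons share the puberty libraries, so their signs are not independent of each other. In postpuberty against prepuberty the median was 0.09 (0.05 over all genes), and 65 members were higher, where 62.1% of all genes were higher too. Under quantile normalization the median was 0.03 with 46 members higher, beside 50.4% of all genes. The mean summed FPKM was 1.06 times as high after as before puberty, with 23527 ± 2659 (SD, n = 3) after puberty, a difference within the SD of either stage. The median turned to -0.06 without Prepuberty 2, with 61 of 77 lower. It was 0.29 without Prepuberty 1, 0.04 without Prepuberty 3, and 0.06, 0.19 and 0.02 without Postpuberty 1, 2 or 3.

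**Figure D5:**
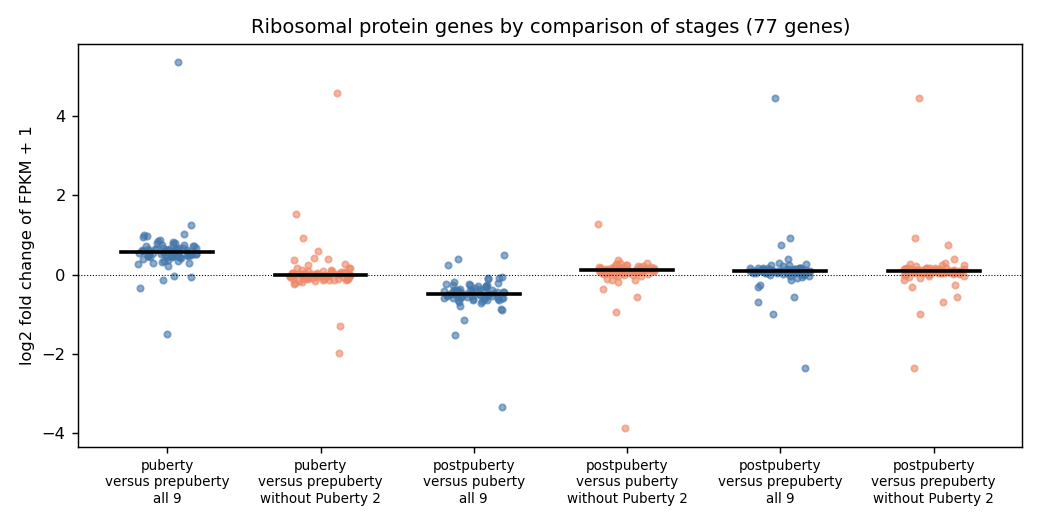
Log2 fold change of FPKM + 1 for the 77 tested members in the 3 comparisons, with all 9 libraries (blue) and without Puberty 2 (orange), with a line at each median. The median in puberty against prepuberty goes from 0.56 to -0.02 when Puberty 2 is left out, and RPL37A stays apart at 4.58.

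Single members were ranked by their p in limma, and none passed the adjustment. RPL37A had the smallest p in puberty against prepuberty, with a log2 fold change of 5.36 (SE 1.35, adjusted p = 0.838 in limma), and of 4.58 without Puberty 2. In postpuberty against prepuberty it had a log2 fold change of 4.46 (SE 1.35, adjusted p = 1 in limma). Its values by library, given above, did not overlap between prepuberty and either later stage, and Prepuberty 1, at 213 FPKM, was nearer to the later libraries than to its own stage. Without Prepuberty 1 the log2 fold changes were 7.20 and 6.29, with adjusted p-values in limma of 0.0822 and 0.120.

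RPS4X was lower at puberty by a log2 fold change of -1.51 (SE 0.63, adjusted p = 0.838 in limma) at levels of a few FPKM, and the change was -0.65 without Prepuberty 3. RPL26L1 had a log2 fold change of 0.53 (SE 0.25) and RPL9, a protein at the base of the stalk region, of 0.63 (SE 0.36), or 0.39 without Puberty 2 and 0.26 without Prepuberty 2. RPL15 was at -0.34 with all libraries and at -0.05 without Puberty 2, and RPL7L1 at -0.07 and -0.11. Apart from RPL37A these differences were thus small, at low levels, or tied to 1 library.

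In postpuberty against puberty RPL36 had the smallest p, with a log2 fold change of -1.52 (SE 0.64, adjusted p = 0.780 in limma), and of -0.94 without Puberty 2 and -0.92 without Postpuberty 1. RPL6, a surface protein of the large subunit, was 162, 320.5 and 247 FPKM at puberty and 130.5, 121 and 152 after puberty, without overlap. Its log2 fold change was -0.80 (SE 0.38) and -0.58 without Puberty 2. RPS26 was at -3.35 (SE 2.17) through Puberty 3, and at -1.47 without it. RPL15, RPL7L1 and RPS4X were those with the smallest p in the opposite direction, at 0.39, 0.23 and 0.50, and at 0.10, 0.27 and 0.30 without Puberty 2. In postpuberty against prepuberty RPS3A was at 0.74 (SE 0.57) and at 0.13 without Prepuberty 2, RPL26L1 at 0.30 and at 0.17 without Postpuberty 2, RPS26 at -2.37 and at 0.19 without Prepuberty 1, RPS4X at -1.01 and at -0.15 without Prepuberty 3, and RPL36 at -0.57 and at 0.0281 without Postpuberty 1.

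Members whose libraries did not overlap between stages were few. In puberty against prepuberty RPL26L1 and RPL37A were higher in all 3 puberty libraries, 2 of 77 against 2.32% of all genes, and RPS4X was lower, 1 of 77 against 2.84%. In postpuberty against puberty 0 of 77 were higher against 5.25%, and RPL6 and RPS26 were lower against 2.07%. For RPS26 this rested on low values, 2.09 FPKM in Puberty 1 against 1.84 in Postpuberty 2, with or without Puberty 2. In postpuberty against prepuberty only RPL37A was higher against 3.17%, and 0 of 77 were lower against 1.4%. Whether these counts differed from the shares over all genes was not tested.

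Without Puberty 2, 2 of 77 (RPL26L1 and RPL37A) were higher and 2 of 77 (RPL7A and RPS4X) lower at puberty than before, against 7.07% and 4.58% of all genes. RPL7A, RPLP0 and RPS15A were higher after puberty than at puberty (7.93%), and RPL6 and RPS26 were lower (6.08%). RPLP0, the core of the stalk, was 234 FPKM in both puberty libraries, and it was 328, 237 and 354 after puberty. RPS15A was 162 and 194 at puberty and 196, 196 and 209.7 after puberty, so the gap between the stages was small beside the range before puberty (156 to 264).

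The lists of genes that make, load or regulate ribosomes held 0 calls in any comparison with limma. In puberty against prepuberty the median log2 fold change was 0.05 for the 11 elongation and related genes and -0.05 for 28 initiation factors. It was 0.01 for 33 ribosome biogenesis genes, -0.16 for 14 genes of RNA polymerase I and -0.31 for 17 regulators of TOP mRNAs. Over all genes it was -0.14. The median was 0.32 for the mitochondrial ribosomal proteins and 0.50 for the respiratory chain genes. Without Puberty 2 these medians lay between -0.01 (initiation factors) and 0.15 (respiratory chain). The mitochondrial ribosome and the respiratory chain were thus nearest to the members with all libraries, as in Puberty 2 itself.

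In puberty against prepuberty 1 of 11 elongation and related genes and 1 of 28 initiation factors had an unadjusted p under 0.05 in limma. The count was 0 for the 33 ribosome biogenesis genes, the 14 genes of RNA polymerase I and the 17 regulators of TOP mRNAs. Over all genes the share was 1.82%, and whether the lists differed from it was not tested. EIF4A1, the helicase of the cap-binding complex, was 12.1, 6.98 and 6.41 FPKM before puberty, 2.23, 0.586 and 2.26 at puberty, and 2.21, 1.59 and 6.09 after puberty, with a log2 fold change of -1.85 (SE 0.46, adjusted p = 0.838 in limma) from prepuberty to puberty. Its prepuberty libraries were above all others. EEF2K, the kinase that inhibits elongation factor 2, was 2.98 and 1.08 FPKM in Puberty 1 and Puberty 2 and between 17.4 and 26.1 in the other libraries. EEF1A1, an elongation factor with a TOP mRNA that was chosen after its values were seen, was 789 FPKM in Prepuberty 1 and 491 in Prepuberty 2, the extremes of the 8 libraries as for the members, but 464 in Puberty 2.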

How the data were processed

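Poly-A selected hypothalamic RNA of 9 ewes was sequenced in pairs by the authors, who trimmed reads with Trimmomatic (version 0.32 in the submitters' processing notes), aligned them with HISAT2 and quantified transcripts by StringTie. FPKM per transcript (115108 rows) is the deposited unit. The authors named the values raw counts, but they are not whole numbers. The authors' own comparison, for which they name RUVseq and edgeR, was not used here. From it the paper reports mRNAs and lncRNAs that differed between stages. No deposited column was left without a sample.

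Symbols and positions came from RefSeq for ARS-UI_Ramb_v3.0, the assembly that the authors used, and 76682 of 76684 mRNA rows matched. FPKM was summed per gene. Genes with a mean of at least 0.5 FPKM in 1 stage or more (14238 of 21284) were tested with limma 3.58.1 (R 4.3.3, trended variance) on log2(FPKM + 1), with no scaling between libraries and with Benjamini-Hochberg adjustment over all of them. A call needed an adjusted p under 0.05 and a log2 fold change of at least 1 in size. Because 1 was added, fold changes of low genes are understated. FPKM gives no depth, so precision rests on the number of ewes. The fit was tested on simulated data for postpuberty against prepuberty. Of 200 genes changed by a log2 of 2, 165 were recovered, with 10 false calls. The simulated spread came from the 8 libraries without Puberty 2, and genes were drawn independently. It thus does not cover a library like Puberty 2 or genes that move together.

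Named were the 4 highest and 3 lowest members of each subunit, all paralogues, the 3 smallest p-values in each direction of each comparison, members called or listed at 0 throughout, the extremes of CV, and up to 4 genes of each other list with the smallest p. Some genes that this rule takes are not reported here by name. Other names were chosen after their values were seen. The members, lists and the rule were chosen with earlier results of these data known. Alternatives were scaling, filter, pseudocount, variance trend, single transcripts, a replicate block and leaving out each library. Other tools were Python 3.11.15, matplotlib 3.10.9, pandas 2.3.3, numpy 2.4.6 and scipy 1.17.1.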

Additional observations from a re-analysis of the deposited data

How the results depend on the processing

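In each comparison 0 members and 0 genes were called by limma under all 19 alternatives. The smallest adjusted p of a member was 0.0822 in puberty against prepuberty (without Prepuberty 1), 0.516 in postpuberty against puberty (without Puberty 3) and 0.120 in postpuberty against prepuberty (without Prepuberty 1), and the largest of these minima was 1. The replicate numbers are not stated to pair ewes, and deviations of libraries with the same number correlated between -0.315 and 0.515 over 9 pairs, with 2 above 0.1. With the replicate block 0 members were called in each comparison. Among the members named by their p-values, 3 directions turned under single alternatives, and the cause was not tested. Leaving out Puberty 2 took the members that were higher from 72 to 32 in puberty against prepuberty and from 3 to 64 in postpuberty against puberty. RPL7L1 in puberty against prepuberty was at 0.0172 with upper quartile scaling and ranged from -0.19 to 0.0528 when 1 library was left out. In postpuberty against prepuberty, leaving out 1 library gave -3.93 to 0.19 for RPS26, the latter without Prepuberty 1, and -0.95 to 0.0281 for RPL36, the latter without Postpuberty 1.

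The median log2 fold change of the members depended on scaling and on single libraries. In puberty against prepuberty it was 0.65 with upper quartile scaling, 0.33 with equal totals and 0.15 with quantile normalization, and relative to the median of all genes it was 0.70 without scaling, 0.73, 0.61 and 0.14. In postpuberty against puberty it was -0.63, -0.30 and -0.13, and in postpuberty against prepuberty 0.04, 0.05 and 0.03. Leaving out Puberty 1 gave 0.95 and -0.88 in the 2 comparisons that hold puberty. With Puberty 2 left out and equal totals or upper quartile scaling, both chosen after seeing the data, the median was -0.04 or -0.03 in puberty against prepuberty and 0.09 or 0.07 in postpuberty against puberty. A pseudocount of 0.1 gave medians of 0.56, -0.49 and 0.09 in the 3 comparisons.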

Other observations

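Some values stood outside the comparisons and are given without explanation. RPS28, which RefSeq annotates as non-coding in this assembly (chromosome 5, 14707589 to 14708699), was listed at 613, 334 and 429.8 FPKM before puberty, 339.7, 2869 and 459 at puberty, and 494, 379 and 458 after puberty. It was thus highest in Puberty 2, then in Prepuberty 1, and lowest in Prepuberty 2, like most core members. RPL36AL, a copy of RPL36A that the rule leaves out because of its 2 letters, was 796 FPKM in Puberty 2 and between 125 and 186 in the other libraries.

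LOC101123533 (chromosome 2, 238543737 to 238544071), an mRNA gene without a symbol that was chosen after its values were seen, was 191, 254 and 259 FPKM before puberty, 19.5, 5.98 and 35.4 at puberty, and 22.7, 22.8 and 138 after puberty. Prepuberty 2 and Prepuberty 3, where RPL37A was at 3.84 and 3.63 FPKM, were its highest libraries. Puberty 2, where RPL37A was highest, was its lowest. No table used here relates the 2 genes to each other.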
